A study of Mus musculus with 24 samples.

Results

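The 6 libraries compared here are the saline astrocyte preparations of the series, 3 from Serpine2 knockout mice and 3 from control mice, out of 24 libraries in all. They were chosen by their titles. Every gene in the count files was used. Knockouts were adult mice homozygous for loss of Serpine2 (Serpine2-/-), and controls were littermates that kept 1 or 2 working alleles, so that wild-type and heterozygous animals share the group and the labels do not tell them apart. All received saline injections. Mice were perfused with phosphate buffered saline, their cerebral cortex was digested with papain, and astrocytes were bound to antibody-coated dishes (immunopanning). The allele was not restricted to astrocytes by any Cre driver that the labels name, and strain and exact age were not given. The other libraries used below are astrocytes from mice given lipopolysaccharide (LPS), a bacterial cell wall component, and microglia from saline mice, each with 3 knockouts and 3 controls. The title of the series asks about antimicrobial gene expression in microglia and astrocytes.

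Serpine2 encodes protease nexin-1, a secreted serpin that inhibits thrombin, plasmin and plasminogen activators by trapping them in a covalent complex. Complexes are cleared by endocytic receptors of the LDL receptor family such as Lrp1. In brain, protease nexin-1 is made by glia, and its target thrombin signals through the protease-activated receptor F2r. Astrocytes take up glutamate and potassium, supply cholesterol and lactate to neurons, and turn on reactive gene sets after injury or LPS.

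Between 13480023 and 23202563 reads per library were counted on genes, and 22535 to 24444 genes had 1 or more reads. Knockout 2 and control 1 stood apart in composition. A single clone-named gene, CT010467.1, took 24% of gene counts in knockout 2 and 23.5% in control 1, against 12.7% to 16.4% in the other libraries. Reads with no unique position were also most frequent in them, at 23.8% in knockout 2 and 23% in control 1. Sex-linked transcripts matched the labels in 6 of 6 libraries, and in each genotype 2 libraries were labelled male and 1 female. Values below are CPM, gene counts scaled to a common library size with TMM factors, and tests are edgeR quasi-likelihood tests over 18188 genes, two-sided and adjusted by Benjamini-Hochberg. A gene is said to be called at an adjusted p under 0.05. The labels do not say whether each library is a separate mouse, so p-values measure the spread between these preparations, which may be technical.

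The start of Serpine2 and that of Scg2, its neighbour on chromosome 1, are shown because the first is the targeted gene and the second was the neighbour with higher reads in knockouts. Each is a RefSeq window on GRCm38.p6, from 250 bases before to 50 after the annotated start, read on the minus strand (chr1:79858616-79858915 for Serpine2 and chr1:79439977-79440276 for Scg2). A total of 7 motifs (the Sox word ACAAAG, its variant ACAATG, a further Sox word AACAAT, the TATA box TATAAA, the GC box GGGCGG, the cyclic AMP element TGACGTCA and the E-box CACGTG) were looked for on both strands in the windows of 16 genes, and the motif in capitals was picked for each of these windows after the matches had been seen. The RefSeq start of Serpine2 lies inside the longer interval that GENCODE gives the gene, so a transcript starting further upstream is not covered by this window. In Serpine2 the capitals mark GGGCGG on either strand, and in Scg2 they mark TGACGTCA.
Serpine2: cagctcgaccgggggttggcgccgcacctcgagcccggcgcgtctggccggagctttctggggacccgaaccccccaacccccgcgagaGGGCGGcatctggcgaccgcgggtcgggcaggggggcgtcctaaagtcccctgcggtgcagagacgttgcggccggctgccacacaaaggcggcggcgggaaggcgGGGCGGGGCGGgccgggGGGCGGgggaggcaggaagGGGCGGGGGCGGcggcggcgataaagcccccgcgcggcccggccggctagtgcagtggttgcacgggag
Scg2: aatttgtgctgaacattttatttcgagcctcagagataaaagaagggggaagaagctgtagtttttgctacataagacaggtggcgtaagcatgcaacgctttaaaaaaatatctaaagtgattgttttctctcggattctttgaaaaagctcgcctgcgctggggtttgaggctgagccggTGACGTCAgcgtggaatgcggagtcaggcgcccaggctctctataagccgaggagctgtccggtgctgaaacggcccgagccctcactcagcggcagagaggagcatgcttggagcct
The Serpine2 window held 6 matches to GGGCGG, adjoining ones overlapping in part, and 1 to ACAAAG. The motif GGGCGG is the core of the GC box bound by Sp1, and it was present in 35.7% of all 32851 windows and at least 6 times in 1.35% of them. The Scg2 window held 1 match to TGACGTCA, the cyclic AMP response element, which 1.79% of windows contain, and 1 to AACAAT, which 10.7% contain. These letters describe the windows only.

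Serpine2 was the gene that fell. Its level was 17.8, 17.4 and 22.2 CPM in knockout libraries 1 to 3, against 92.6, 169 and 163 CPM in control libraries 1 to 3. Every knockout library lay below every control library. The log2 fold change was −2.88 (SE 0.26, 95% interval −3.43 to −2.34, edgeR adjusted p = 5.24e-05), a 7.38-fold lower level. Summed over the libraries, 1004 reads fell on Serpine2 (ENSMUSG00000026249, GRCm38 chromosome 1, 79794197 to 79861180, minus strand) in knockouts and 8523 in controls. The knockout mean was 13.6% of the control mean, so reads on the gene remained, and the sources used here do not say which exons the allele lacks. Reads were counted over the whole gene, which includes any part the allele keeps. Per kilobase of exon, Serpine2 stood at 2.31 CPM in knockouts and 17.1 CPM in controls, rank 7372 and rank 896 of 18170 genes. Among controls the spread was wide, since control 1 was at 55.8% of the mean of controls 2 and 3.

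In CPM, the remaining level was alike across preparations. Astrocyte and microglia libraries were scaled separately, however. Mitochondrially encoded genes summed to between 367663 and 467175 CPM in saline astrocytes and between 24270 and 57053 CPM in saline microglia. Like CPM in both cell types is therefore not a like level beside other transcripts. In LPS astrocytes Serpine2 was at 16.9, 16.4 and 18.4 CPM in knockouts, against 107, 80.1 and 78.2 CPM in controls, a log2 fold change of −2.36 (SE 0.25, edgeR adjusted p = 0.000747). In saline microglia it was at 20.1, 17.6 and 20.7 CPM in knockouts, against 62.2, 46.6 and 96.5 CPM in controls. The log2 fold change there was −1.82 (SE 0.27, edgeR unadjusted p = 8.58e-06), which was not called (edgeR adjusted p = 0.191). The knockout libraries of the 3 experiments thus lay between 16.4 and 22.2 CPM, while controls ran from 46.6 to 169 CPM. The fold change after LPS minus that in saline was 0.52 (95% interval −0.20 to 1.24), with an edgeR adjusted p of 1. Microglia minus astrocytes gave 1.11 (0.38 to 1.84, unadjusted p = 0.00456), which was not called over all genes (edgeR adjusted p = 0.761). That contrast held 0 called genes of 24607 in edgeR, with 1394 (5.67%) at an unadjusted p under 0.05.

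**Figure D1:**
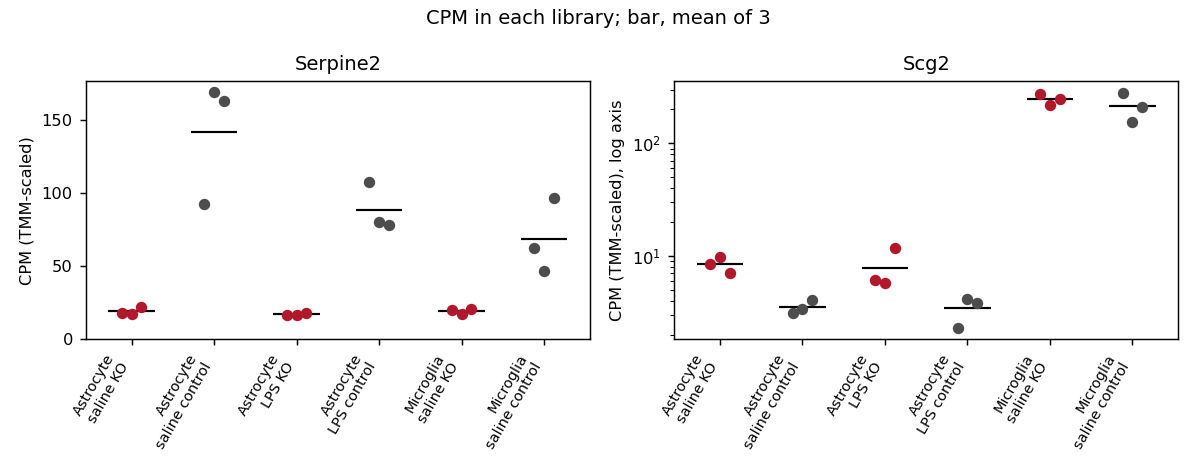
CPM of Serpine2 (left, linear axis) and Scg2 (right, log axis) in each of 3 knockout (red) and 3 control (grey) libraries of saline astrocytes, LPS astrocytes and saline microglia, with bars at the means. Serpine2 in knockouts lies between 16.4 and 22.2 CPM throughout, below all controls, and Scg2 in astrocytes lies between 5.71 and 11.8 CPM in knockouts and between 2.31 and 4.17 CPM in controls.

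Beyond Serpine2, no gene passed the threshold. Of 18188 genes tested 1 was called (0.0055%), and 500 (2.75%) had an unadjusted p under 0.05, of which 185 (1.02%) were higher and 315 (1.73%) lower in knockouts. DESeq2 on the same genes called 2, Serpine2 and the iron carrier gene Trf. The median log2 fold change over all genes was −0.02. How small a change could be seen depended on the level of the gene: the 95% interval lay within 2-fold of no change for 12.7% of genes at 1 to 10 CPM, 81.4% at 10 to 100 CPM and 90.4% at 100 CPM and above. Genes below 1 CPM had a median SE of 1.18 on the log2 scale, against 0.24 at 100 CPM and above. In LPS astrocytes, whose knockout and control libraries are separate from the saline ones, Serpine2 was again the single gene called, and 497 (2.73%) had an unadjusted p under 0.05 in edgeR. No gene was called for the difference between both injections, where 473 (2.6%) had an edgeR unadjusted p under 0.05, and DESeq2 called 0.

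**Figure D2:**
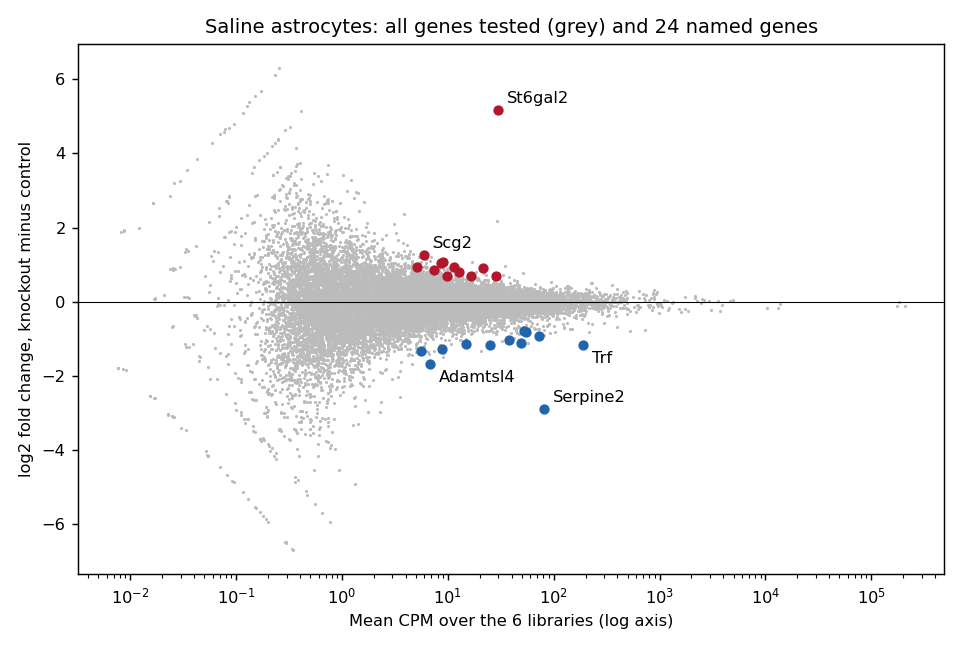
Log2 fold change, knockout minus control, against mean CPM over the 6 saline astrocyte libraries (log axis), one grey point per gene tested, with the 12 named genes higher in knockouts in red and the 12 lower in blue. Serpine2 at −2.88 lies apart from genes of like level, and St6gal2 at 5.16 rests on a single knockout library.

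Of the genes that follow, none but Serpine2 was called (edgeR adjusted p = 1 for each), and they are given as values. They are the 12 per direction with the smallest unadjusted p among genes averaging at least 5 CPM. Genes with Gm, Rik, LOC, microRNA, clone or pseudogene symbols were left out of this choice. Trf, which encodes the iron carrier transferrin and is made in brain by oligodendrocytes and choroid plexus, came after Serpine2. It was at 134, 131 and 82.9 CPM in knockouts, against 276, 269.6 and 231 CPM in controls. The groups did not overlap, as was so for 905 genes lower in every knockout library (4.98%). Its log2 fold change was −1.16 (SE 0.23, 95% interval −1.65 to −0.67, edgeR unadjusted p = 0.000121, adjusted p = 1), and DESeq2 gave an adjusted p of 0.0417. After LPS, Trf was at 138, 137 and 202 CPM in knockouts and 136, 162 and 164 CPM in controls, which overlap, and LPS minus saline was 1.21 (0.52 to 1.90, unadjusted p = 0.00182, edgeR adjusted p = 1).

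The next lower genes included Cldn11, a tight junction protein of myelin, at 25.3, 30.8 and 19.4 CPM in knockouts, against 46.3, 65.5 and 41.4 CPM in controls (log2 fold change −1.02, SE 0.26). Adamtsl4, a secreted ADAMTS-like glycoprotein, was at 2.43, 4.64 and 2.66 CPM in knockouts, against 14.6, 9.81 and 6.65 CPM in controls (−1.67, SE 0.43). Neither gene had overlapping groups. Adamtsl4 after LPS was at −0.85 (unadjusted p = 0.0576), and Cldn11 was at −0.02. Arhgef10, a guanine nucleotide exchange factor, was at 38.7, 38.3 and 38.3 CPM in knockouts, against 76.7, 58.9 and 63.0 CPM in controls (−0.78, SE 0.21). Slc12a2, the sodium, potassium and chloride cotransporter NKCC1, was at 76.5, 43.6 and 29.1 CPM in knockouts, against 79.7, 100.2 and 102 CPM in controls (−0.92, SE 0.29). The others, Plekhh1, the zinc finger gene Zfp536, the ubiquitin ligase gene Hecw2, Plekhg3, Tmem151a and the centriole gene Ccp110, had log2 fold changes from −1.34 (Hecw2) to −0.81 (Ccp110). In each of the 12 lower genes all knockout libraries lay below all control libraries, as in 905 genes over the whole table (4.98%). The 12 were picked by their p in these same libraries, which favours groups without overlap.

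Among the 12 named genes higher in knockouts, Mrpl19, a mitochondrial ribosomal protein, had the smallest unadjusted p (0.00404 in edgeR, adjusted p 1). Its level was 8.07, 14.0 and 13.1 CPM in knockouts, against 4.90, 5.70 and 6.38 CPM in controls, without overlap (log2 fold change 1.05, SE 0.32). Syvn1, a ubiquitin ligase of endoplasmic reticulum quality control, was at 25.6, 30.6 and 28.2 CPM in knockouts, against 14.3, 15.9 and 14.5 CPM in controls (0.92, SE 0.30). Its LPS value was −0.03. Scg2 came second and is described with the neighbours of Serpine2. The others were Zfp414, the kinase Snrk, Plekhg2, the DNA repair gene Rad52, the ciliary gene Tctn2, the pyrimidine synthesis enzyme Cad, the membrane insertion factor Emc6 and Rtf2, between 0.68 (Snrk) and 1.06 (Plekhg2), and Plekhg2 was at 0.60 without knockout 2. Of the 12 genes higher in knockouts, all but Rtf2 and St6gal2 had groups that did not overlap, as had 749 genes over the whole table (4.12%). St6gal2, a sialyltransferase, was at 1.48, 169.7 and 2.15 CPM in knockouts, against 1.38, 1.92 and 1.51 CPM in controls. Its fold change of 5.16 (SE 1.73) therefore came from knockout 2, and was 0.17 without that library.

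Genes near Serpine2 were looked at because a targeted allele carries the chromosome segment it was made on. Of the 15 genes on each side in RefSeq order, 20 were in the count table and 10 were tested, and none was called (0 of 10, against 0.0055% of all genes). An unadjusted p under 0.05 in edgeR was found for 2 of the 10, Scg2 and Dock10, against 2.75% of all genes. The same 2 had groups without overlap, as had 4.98% of all genes in the lower and 4.12% in the higher direction. Scg2, which encodes the secretory granule protein secretogranin II of neurons and endocrine cells, lies 354 kb away. It was at 8.49, 9.77 and 7.10 CPM in knockouts, against 3.11, 3.38 and 4.11 CPM in controls. The groups did not overlap, and the log2 fold change was 1.26 (SE 0.39, unadjusted p = 0.00505, edgeR adjusted p = 1). After LPS, in other libraries, Scg2 was at 6.11, 5.71 and 11.8 CPM in knockouts, against 2.31, 4.17 and 3.79 CPM in controls, again without overlap (1.21, SE 0.39, unadjusted p = 0.00707, edgeR adjusted p = 1). Microglia libraries, which were scaled separately, held more Scg2 in CPM, at 275, 217 and 246 in knockouts and 281, 155 and 212 in controls. There the groups overlapped (0.19). Neuron markers, which share cells with Scg2, summed to 401, 373 and 421 CPM in the knockout astrocyte libraries and 447, 397 and 448 CPM in controls, also overlapping.

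Dock10, a guanine nucleotide exchange factor 640 kb away on the other side, is named after its value was seen. It was at 57.6, 27.1 and 25.3 CPM in knockouts, against 71.1, 75.1 and 89.8 CPM in controls (log2 fold change −1.10, SE 0.38, unadjusted p = 0.00997, edgeR adjusted p = 1), and at −0.18 after LPS. The other protein-coding neighbours tested had overlapping groups. These were Wdfy1 (−0.46), Mrpl44 (−0.61), Cul3 (−0.04) and Nyap2 (−0.20), each with a 95% interval that included 0.

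Markers of astrocytes dominated all libraries. The 16 markers summed to between 21052 and 23015 CPM in knockouts and between 21137 and 23985 CPM in controls. Slc1a2, the glutamate transporter GLT-1, was at 10979.9, 7647 and 10719 CPM in knockouts, against 11656, 9828 and 11398 CPM in controls (log2 fold change −0.16, 95% interval −0.71 to 0.38). Gjb6, the gap junction protein connexin 30, was at 245, 342 and 301 CPM in knockouts, against 242, 269 and 222 CPM in controls (0.28, −0.27 to 0.83). Groups overlapped for both genes. Of the 16 markers, 12 had log2 fold changes above 0 and 4 below, with a median of 0.10. All knockout libraries lay above all controls for 4 (4.12% of all genes) and below for 0. In edgeR, 0 of the 16 were called and 0 had an unadjusted p under 0.05. Of the 31 homeostatic astrocyte genes (transporters, channels, metabolic enzymes), 0 were called and 0 had an unadjusted p under 0.05. In 23 of the 31 the log2 fold change was above 0, and groups without overlap were higher for 3 and lower for 1. Their median was 0.05 (up to 0.10 without knockout 1), against −0.02 over all genes, and 28 of 31 had an interval within 2-fold of no change. Over all genes that share was 35.7%, but it rose with level, to 81.4% at 10 to 100 CPM and 90.4% at 100 CPM and above. Glul, the glutamine synthetase, was at 2979, 4205 and 3548 CPM in knockouts, against 4123, 3443 and 3006 CPM in controls (0.02, overlapping).

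**Figure D3:**
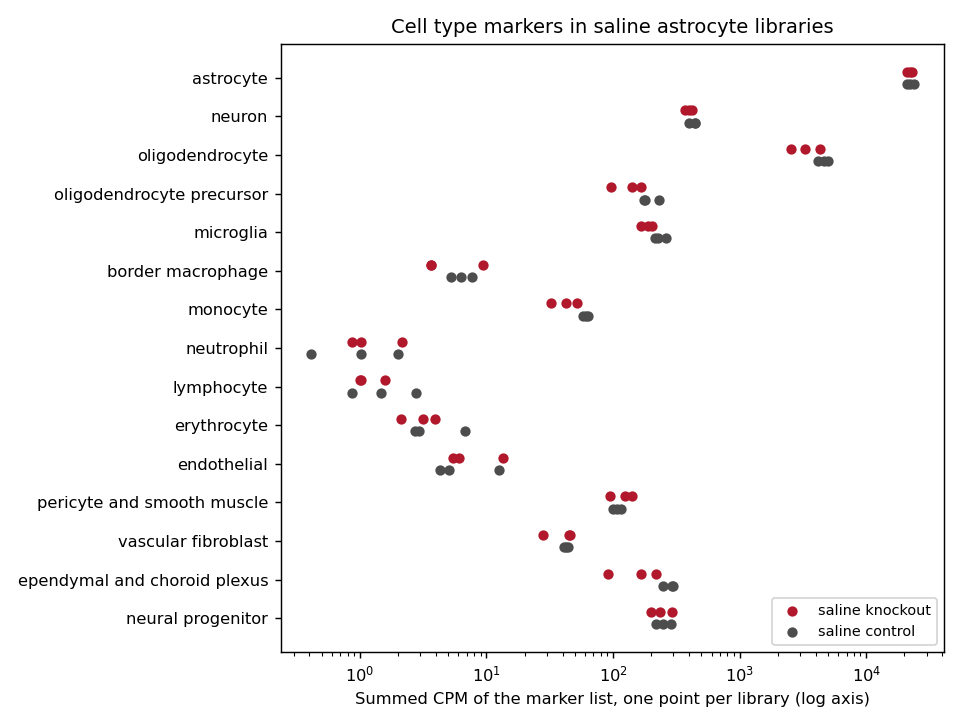
Summed CPM of 15 cell type marker lists (log axis) in 3 saline knockout (red) and 3 saline control (grey) astrocyte libraries. Astrocyte sums lie between 21052 and 23985 CPM and overlap, while the precursor, microglia, monocyte and ependymal sums are lower in every knockout library. The monocyte sum is nearly all Vcan and the ependymal sum nearly all Enpp2.

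Oligodendrocyte transcripts were the largest sum from another cell type. The 12 markers summed to 4291, 3256 and 2544 CPM in knockouts, against 5026, 4607 and 4125 CPM in controls. Knockout 1 lay above control 3, so the groups overlapped. All 12 markers had log2 fold changes below 0, against 51.9% of all genes. Of the 12, 0 were called, 7 had an unadjusted p under 0.05 in the lower direction (1.73% of all genes) and 8 did not overlap (4.98% of all genes). Mbp, myelin basic protein and the most abundant of them, was at 2094, 1390.1 and 1363 CPM in knockouts, against 2507, 1676 and 1366 CPM in controls, with overlap (−0.19, SE 0.42). The median over the list was −0.72 in saline, and −0.42 without knockout 3. It was −0.25 in LPS astrocytes and −0.00 in saline microglia. In bulk libraries fewer cells of a type and less RNA per cell cannot be told apart.

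Precursor markers summed to 142, 166 and 97.2 CPM in knockouts, against 231, 178 and 174 CPM in controls, and did not overlap. Sox10, a transcription factor of the oligodendrocyte lineage, was at 22.1, 28.8 and 12.99 CPM in knockouts, against 49.8, 41.8 and 40.4 CPM in controls (−1.04, SE 0.37). Olig1, of the same lineage, overlapped at 43.8, 65.0 and 26.6 CPM in knockouts and 65.7, 56.5 and 47.4 CPM in controls (−0.32, SE 0.45). Precursor markers had a median of −0.59 in saline, −0.32 without knockout 3, and 0.39 after LPS. Trf and Cldn11 are expressed by oligodendrocytes, and with the summed oligodendrocyte level of each library as a covariate, an alternative chosen after seeing the data, Trf was at −1.17 and Cldn11 at −0.82. With that covariate Zfp536 was at −0.78, Tmem151a at −0.80, Dock10 at −0.74 and Syvn1 at 0.63, and none of the 25 genes refitted changed sign. Cldn11 is itself part of that sum, and Mbp is its most abundant member. The sum is therefore a rough measure, and the part of oligodendrocyte content in these values was not tested.

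**Figure D4:**
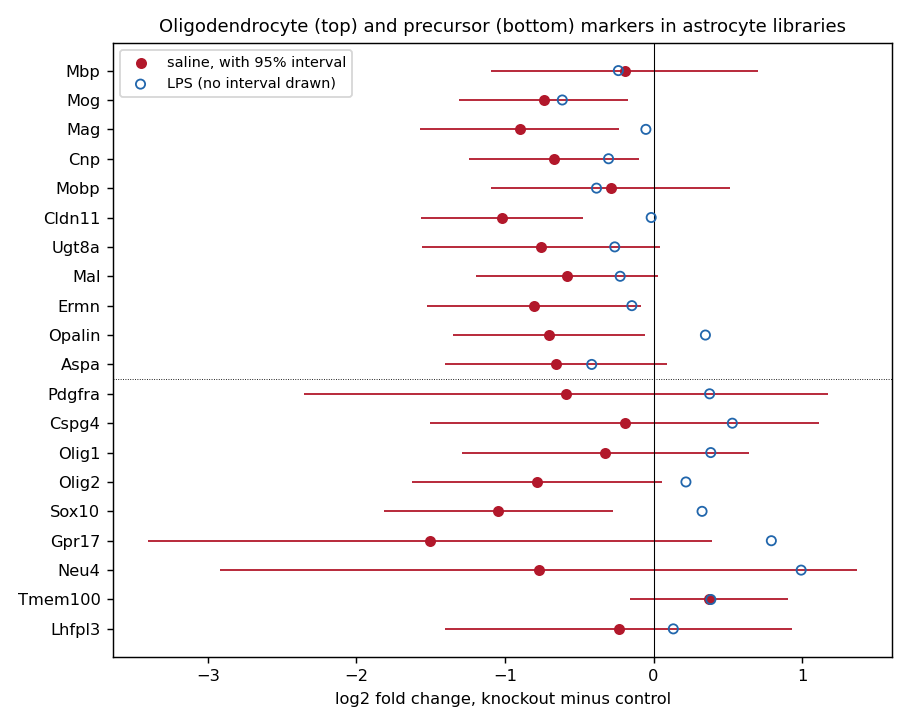
Log2 fold changes, knockout minus control, of 11 of the 12 oligodendrocyte markers and 9 precursor markers in saline astrocytes (red, with 95% intervals) and LPS astrocytes (blue circles). All 11 oligodendrocyte values drawn for saline lie below 0, from −1.02 for Cldn11 to −0.19 for Mbp.

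Marker lists of 3 further cell types summed lower in every knockout library. The monocyte and ependymal sums each came nearly all from a single gene. Microglia markers were at 205, 187 and 168 CPM in knockouts, against 263, 224.8 and 214 CPM in controls. Csf1r, the receptor microglia need for survival, was at 37.9, 30.2 and 27.3 CPM in knockouts, against 55.6, 39.4 and 46.4 CPM in controls (−0.57, SE 0.42). Sall1, a microglial transcription factor, overlapped at 52.6, 34.1 and 48.0 CPM in knockouts and 45.6, 48.2 and 42.1 CPM in controls (−0.01, SE 0.23). The median of the 15 microglia markers was −0.37 in saline, −0.19 without knockout 3 or without control 1, and 0.29 after LPS. Monocyte markers summed to between 32.3 and 52.2 CPM in knockouts and between 58.2 and 63.8 CPM in controls, nearly all from the matrix proteoglycan gene Vcan, while the defining receptor Ccr2 was at 0 in all 6 libraries. Ependymal and choroid markers were at 90.9 to 219 CPM in knockouts and 248 to 300.05 CPM in controls, nearly all from Enpp2, the lysophospholipase autotaxin, which oligodendrocytes also make (215, 161 and 87.5 CPM in knockouts, against 239, 284 and 294 CPM in controls). For the microglia, monocyte and ependymal lists, the part of such cells in the values of single genes was not tested.

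Markers of neutrophils, lymphocytes, erythrocytes, endothelium and border macrophages were scarce in both genotypes. Neutrophil markers summed to at most 2.16 CPM in knockouts and 1.99 CPM in controls, with Camp, Ltf, Mmp9 and Elane at 0 reads in all 6 libraries. Lymphocyte, erythrocyte, endothelial and border macrophage sums stayed at or under 13.5 CPM in knockouts and 12.7 CPM in controls. Pericyte, vascular fibroblast and neural progenitor sums were larger and overlapped between genotypes. Pericyte and smooth muscle markers summed to 94.3 to 141 CPM in knockouts and 100 to 115 CPM in controls. Vascular fibroblast markers summed to 27.8 to 45.4 CPM and 41.2 to 44.4 CPM, and neural progenitor markers to 198 to 291 CPM and 220 to 287 CPM. Gad2, an enzyme of GABA synthesis and a marker of inhibitory neurons, was at 0.686, 0.635 and 1.72 CPM in knockouts, against 0.663, 0.958 and 16.3 CPM in controls, so that 1 control library held nearly all of its reads.

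The title of the series singles out antimicrobial genes. Of the 38 listed, 19 were tested in astrocytes, 24 had under 10 reads in every saline library, and 0 were called. The read filter took in the LPS libraries too, so some tested genes, Hp among them, stood near 0 in saline. For such genes a change in saline could hardly be seen. The list summed to 41.5, 59.9 and 34.7 CPM in knockouts, against 53.2, 44.5 and 47.2 CPM in controls, and the groups overlapped. Its median log2 fold change was −0.01 in saline astrocytes, against −0.02 over all genes. It was −0.32 without knockout 2, 0.37 in LPS astrocytes and 1.08 in saline microglia. In those microglia libraries the 13 neutrophil markers, some of which are also on the antimicrobial list, had a median log2 fold change of 1.198 and summed to between 1423 and 2616 CPM in knockouts and between 764 and 906 CPM in controls, and their part in the microglial value was not tested. Chil1, a chitinase-like secreted protein, led the list at 20.3, 33.7 and 18.7 CPM in knockouts and 26.4, 24.1 and 22.6 CPM in controls (−0.01, 95% interval −0.58 to 0.57). Rnase4, a secreted ribonuclease, was at 3.59, 7.09 and 3.73 CPM in knockouts and 8.42, 1.32 and 3.68 CPM in controls (0.11, −2.11 to 2.32). Lcn2, an iron-scavenging lipocalin that astrocytes make after LPS, is named after its value was seen and was at 3.85, 6.11 and 3.73 CPM in knockouts and 4.64, 4.24 and 4.98 CPM in controls (−0.01, −2.29 to 2.26). For Rnase4 and Lcn2 the intervals include changes of over 2-fold either way. Haptoglobin (Hp) had the smallest p of the list, with no reads in knockouts and 0, 0.274 and 0.0541 CPM in controls.

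Members of the plasminogen and thrombin system are the proteases that protease nexin-1 inhibits, their receptors and the other inhibitors. Of 34 listed, 25 were tested, 0 were called, and the median was −0.00 (−0.03 to 0.05 with each library left out). Lrp1, a clearance receptor of serpin complexes, was at 401, 491 and 360.5 CPM in knockouts, against 476, 364 and 389 CPM in controls (0.03, 95% interval −0.49 to 0.54). F3, tissue factor, the starter of thrombin formation, was at 209.6, 258 and 255 CPM in knockouts, against 178, 205 and 198 CPM in controls, without overlap (0.32, −0.23 to 0.86). Thbd, the thrombin receptor thrombomodulin, was at 1.58, 0.538 and 0 CPM in knockouts and 0, 0.137 and 0 CPM in controls, levels near the floor. Targets of the inhibitor and the thrombin receptor are named after their values were seen. Plat, tissue plasminogen activator, was at 10.4, 11.3 and 11.7 CPM in knockouts, against 13.7, 11.9 and 15.3 CPM in controls (−0.29, −1.46 to 0.87). Plau, urokinase, overlapped at 1.06, 2.35 and 2.15 CPM in knockouts and 1.38, 1.92 and 1.46 CPM in controls (0.22, −1.69 to 2.13). F2, prothrombin, also overlapped, at 0.580, 0.0977 and 1.29 CPM in knockouts and 0.255, 0.411 and 1.89 CPM in controls (−0.39, −3.30 to 2.53). Plg, plasminogen, was near 0 in all 6 libraries and was not tested. F2r was at 4.33, 2.54 and 1.58 CPM in knockouts, against 6.58, 4.47 and 6.22 CPM in controls (−1.02, SE 0.45, unadjusted p = 0.0358, edgeR adjusted p = 1). Plat and F2r lay lower in every knockout library. Of the 25 tested, groups without overlap were lower for these 2 and higher for 2, F3 among them. Over all genes such groups were lower for 4.98% and higher for 4.12%.

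Other serpins showed no call. Of 29 listed, 15 were tested, and their median was −0.24, or −0.05 without control 1. Of the 29, 16 had under 10 reads in every saline library. Serpinh1, the collagen chaperone HSP47, was at 20.2, 23.8 and 19.0 CPM in knockouts, against 17.6, 18.5 and 17.9 CPM in controls (0.22, 95% interval −0.56 to 1.01). Serpinb6a, an intracellular protease inhibitor, was at 12.0, 14.0 and 10.2 CPM in knockouts, against 17.6, 15.5 and 13.7 CPM in controls (−0.37, −0.94 to 0.20). Serpinf2, the plasmin inhibitor, was at 0.0528, 2.88 and 0.861 CPM in knockouts and 0.255, 0.0456 and 0.27 CPM in controls, which overlap.

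Reactive gene sets were low in saline and did not separate the genotypes. Of the pan-reactive genes 13 were tested with a median of −0.01, of the A1 genes 12 with 0.38 and of the A2 genes 12 with −0.02, and none was called. In the A2 list 1 gene, Tm4sf1, was higher at an unadjusted p under 0.05 in edgeR, against 1.02% of all genes. No pan-reactive or A1 gene had an unadjusted p under 0.05. Without knockout 2 the A1 median was −0.09. With each library left out, the pan-reactive median ran from −0.12 to 0.12 and the A2 median from −0.22 to 0.13. Gfap, the intermediate filament gene raised in reactive astrocytes, was at 63.5, 71.3 and 93.4 CPM in knockouts, against 94.7, 73.1 and 89.6 CPM in controls (−0.17, 95% interval −1.10 to 0.75). Amigo2, an A1 gene, was at 9.02, 20.2 and 7.89 CPM in knockouts and 10.2, 10.0 and 6.49 CPM in controls. Vim, vimentin, also overlapped, at 27.9, 27.7 and 21.0 CPM in knockouts and 28.3, 26.1 and 28.8 CPM in controls.

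Immune signalling genes gave no call either. Il33, an alarmin cytokine, was at 124, 129 and 112 CPM in knockouts, against 144, 169 and 154 CPM in controls, without overlap (−0.36, 95% interval −0.90 to 0.19). The 23 cytokines and chemokines tested had a median of −0.36, between −0.48 and −0.16 with each library left out. The interferon-stimulated, antigen presentation and complement lists had medians of 0.15, 0.24 and 0.02. Higher at an unadjusted p under 0.05 in edgeR were 2 of 21 antigen presentation genes, H2-Ab1 with the smallest p. So was 1 of 17 complement genes, Cd55, against 1.02% of all genes. Of the cytokines and chemokines 1, Cxcl2, was lower at that threshold, against 1.73% of all genes. The interferon-stimulated median ran from 0.013 to 0.29 with each library left out, lowest without knockout 3. Without knockout 2 the antigen presentation median was −0.01 and that of complement was −0.37, and without control 1 the first was −0.02. B2m, the light chain of MHC class I, was at 44.7, 57.1 and 50.6 CPM in knockouts and 47.6, 50.6 and 51.0 CPM in controls.

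Metabolic and housekeeping genes gave no call. Cholesterol synthesis genes had a median of 0.10, or 0.0047 without knockout 2, with 20 of 22 intervals within 2-fold of no change. Msmo1, a sterol oxidase of that pathway, was at 422, 462 and 448 CPM in knockouts, against 286, 385 and 374 CPM in controls, without overlap (0.35, 95% interval −0.22 to 0.92). Glycolysis genes had a median of 0.13, or 0.00 without knockout 2, and Pfkp, a phosphofructokinase, was at 121, 130.1 and 136 CPM in knockouts, against 111, 92.7 and 103 CPM in controls, also without overlap (0.34, −0.14 to 0.81). Oxidative phosphorylation (0.08), cytosolic ribosomal protein (−0.05), clock and glucocorticoid (0.10) and cell cycle (−0.16) lists held 0 called genes and 0 with an unadjusted p under 0.05. Immediate early genes, which cell isolation can raise, had a median of 0.14 (0.05 to 0.24 with each library left out), with Fos at 932, 854 and 1011 CPM in knockouts and 604, 855 and 949.6 CPM in controls. With each library left out in turn, the ribosomal median ran from −0.21 to 0.09, that of oxidative phosphorylation from −0.11 to 0.20 and that of the cell cycle from −0.63 to 0.22. The secreted synapse and matrix factors had a median of −0.03 (−0.04 to 0.03 with each library left out), and Sparcl1 (hevin) was at 3850.4, 3329 and 4083 CPM in knockouts and 4173, 3694 and 4063 CPM in controls. Mitochondrially encoded genes had a median of −0.22 (−0.33 to −0.13 with each library left out), and collagen and basement membrane genes one of 0.04 (−0.07 to 0.11 with each library left out). Of 15 mitochondrially encoded genes 9 were tested, and all 9 lay below 0, against 51.9% of all genes. In edgeR 0 of the 9 had an unadjusted p under 0.05, and groups overlapped for each. Mitochondrial transcripts took 35.2% to 43.6% of gene counts in knockouts and 36.6% to 44.1% in controls.

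**Figure D5:**
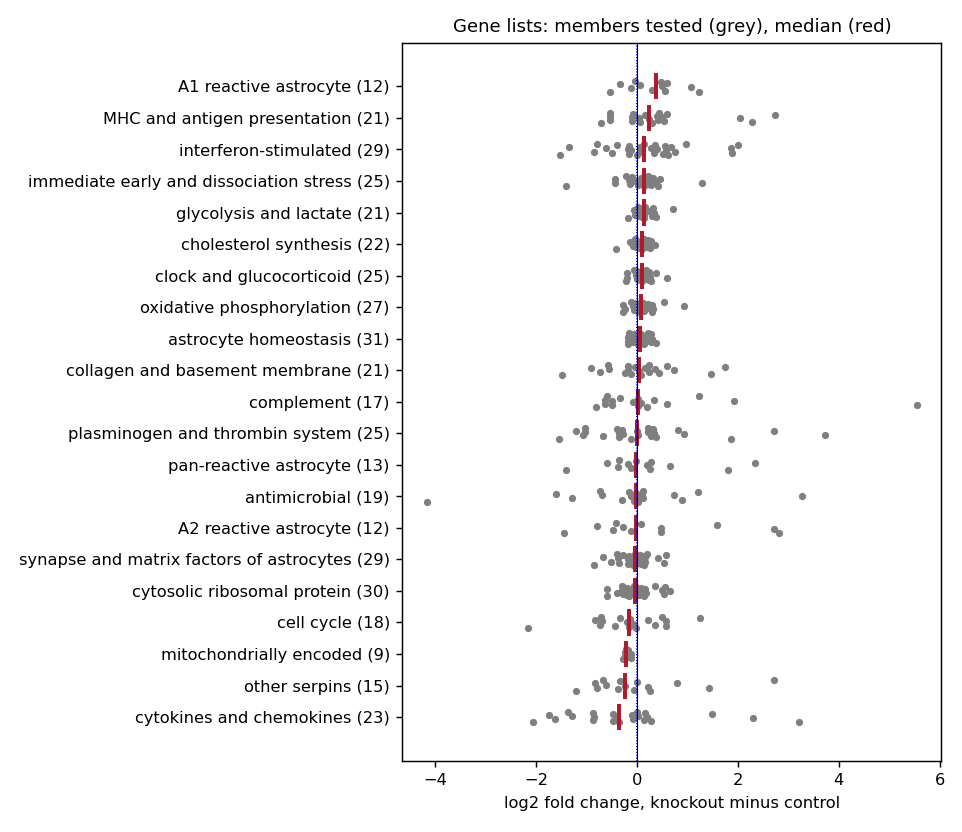
Log2 fold changes, knockout minus control, of the tested members (grey points) and their median (red bar) for 21 gene lists in saline astrocytes, with the number tested in brackets. The medians lie between −0.36 (cytokines and chemokines) and 0.38 (A1 genes), with the dotted line at the median of all genes, −0.02.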

How the data were processed

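RNA from 24 preparations was sequenced, of which 12 astrocyte libraries entered the main fit. The deposited values were raw read counts per Ensembl gene, which the authors had not normalised: the files hold whole numbers that sum to a different total in each library. Per the submitters' processing notes, STAR 2.6.0c and HTSeq were used, and GRCm38 and GRCm39 were named without a role. The annotation release and strand setting are not given in the sources used here, so reads of overlapping and antisense genes cannot be told apart, nor can reads of near-identical copies such as the H2 genes. Per the labels' protocols, libraries were made with Ovation V2 and NEBNext Ultra kits. Rows counting reads outside genes, 18.9% to 21% of all counted and uncounted reads in the saline libraries, were left out of sizes and tests with the other summary rows.

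Counts were analysed with edgeR 4.0.16 in R 4.3.3. Genes passed filterByExpr (minimum count 10, minimum total 15), libraries were scaled by TMM, and 1 mean was fitted for each of 4 groups (knockout and control, saline and LPS) with glmQLFit in robust mode and glmQLFTest. Astrocytes and microglia were compared over 24607 genes of all 24 libraries, where cell type goes together with brain region and preparation. Intervals cover the spread between libraries. The sources used here name no molecular identifiers, so reads can be copies of one molecule. Symbols were found for 55141 of 55487 identifiers, and gene positions are those of GENCODE on GRCm38. Lists are described without a test, since the members, the 22 gene lists, the 15 marker lists and the rule for named genes were chosen with earlier results of these data known. In each direction 12 genes were named, the called ones first and then those with the smallest unadjusted p averaging at least 5 CPM. Genes with Gm, Rik, LOC, microRNA, clone or pseudogene symbols were not open to this second step. In each list the members open to naming were those called, the 2 most abundant and the 1 with the smallest p, and not all of these are printed. One oligodendrocyte marker entered the counts, sums and medians but is not reported by name here. Scripts were tested on simulated counts. Alternatives were RLE factors, DESeq2 1.42.0, no filter, a minimum count of 50, the saline libraries alone, sex, a replicate block, removal of mitochondrial genes and CT010467.1, and each saline library left out.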

Additional observations from a re-analysis of the deposited data

How the results depend on the processing

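Serpine2 stayed called and lower under every alternative tried, between −3.11 and −2.73 with each saline library left out. It was alone in being called except without a filter on low counts, where 8 genes were called (Serpine2, St6gal2, Tdp2, Gm5447, Lcp2, Aoah, C1rl and Kcna1), and in DESeq2, where 2 were. Leaving out each saline library kept the count at 1. Of 399 recomputed values of 25 genes, Dock10 among them after its value was seen, 0 changed sign, and 2 came past the threshold, Trf in DESeq2 and St6gal2 without a filter. DESeq2 gave St6gal2 no adjusted p. Whether the replicate numbers pair the saline libraries is not known, since no label ties a number to a litter. The deviations of same-numbered knockout and control libraries correlated at −0.26, 0.033 and 0.046, which cannot decide it with 3 libraries a group. The LPS pairs correlated at 0.5, 0.26 and 0.56, and with the block the count for LPS astrocytes stayed at 1 and that for LPS minus saline at 0. With a replicate block Serpine2 was at −2.84 (edgeR adjusted p = 2.81e-05), and the block left the count at 1.

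Of 332 recomputed list medians, 36 in 19 of 37 lists moved by more than the replicate spread. With each saline library left out, medians ran from −0.34 to 0.11 for neuron, −0.46 to −0.19 for microglia, −0.30 to 0.54 for border macrophage, −0.89 to 0.24 for neutrophil, −0.50 to 2.06 for lymphocyte and −0.78 to −0.43 for ependymal markers. They ran from −0.27 to −0.048 for other serpins, −0.32 to 0.056 for antimicrobial, −0.042 to 0.030 for synapse and matrix, −0.091 to 0.45 for A1, −0.48 to −0.16 for cytokine, −0.017 to 0.27 for antigen presentation, −0.37 to 0.065 for complement, 0.00028 to 0.22 for glycolysis and 0.050 to 0.21 for clock and glucocorticoid genes. Without control 1 and knockout 2 together, an alternative chosen after seeing the data, Serpine2 was at −3.05 and 1 gene was called. The medians were then 0.00 for neutrophil, 2.30 for lymphocyte, 0.35 for erythrocyte, −0.59 for vascular fibroblast and −0.42 for ependymal markers, and −0.045 for other serpins, −0.40 for antimicrobial, −0.070 for A1, 0.30 for A2, −0.050 for interferon-stimulated and −0.28 for complement genes. The cause was not tested. The interval lay within 2-fold of no change for 12.7% of genes at 1 to 10 CPM. It did so for 20 of 29 synapse and matrix, 17 of 21 glycolysis and 21 of 25 clock and glucocorticoid genes tested. With 3 libraries against 3, an exact permutation test of a single sum cannot go below 0.1, and none was made.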

Other observations

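Knockout 2 held high reads of 2 genes that stood low in the other saline libraries. Tdp2, a DNA repair phosphodiesterase, was at 9.07, 122.8 and 12.0 CPM in knockouts, against 12.9, 9.22 and 9.63 CPM in controls, and St6gal2 had the same single high library. In control 1, C1rl, a complement-like serine protease gene, was at 6.99 CPM, against 0.548 and 0.162 CPM in controls 2 and 3 and 0.106, 0 and 0.144 CPM in knockouts. Kcna1, a voltage-gated potassium channel, was at 16.9, 12.7 and 5.45 CPM in knockouts, against 28.7, 29.8 and 29.9 CPM in controls (log2 fold change −1.33, SE 0.42), with no overlap. These genes are named after the unfiltered fit had called them, and none was called with the filter (edgeR adjusted p = 1).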
